A study of Mus musculus with 6 samples.

Results

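Expression of 58 genes of the Wnt pathway was examined in mouse embryonic fibroblasts that lack Ing1. The genes were 12 Wnt ligands, 3 genes of ligand secretion or agonism, 9 Frizzled receptors, 6 other receptors and co-receptors, 10 extracellular antagonists, 9 intracellular components, 4 TCF/LEF transcription factors and 5 feedback and target genes, and they were found as array probes annotated with one of these symbols and no other. Of the 58 genes, 56 had such a probe, out of 18069 genes with one on the array, and together they had 65 probes. Gsk3b and Tcf7 had none, and the array's Gsk3b probe also carries the symbol Nrcam. Ccnd1 was not among the genes.

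Total RNA of 6 cultures was hybridised to CodeLink mouse whole-genome arrays, 1 culture per array. Cultures C4, C3 and B1 came from embryos in which a gene trap cassette inserted in the Ing1 locus inactivates the gene, and cultures H2, H3 and I2 from wild-type littermates. Each culture was an early-passage preparation from 1 embryo, which makes the replicates biological ones, and neither the age nor the strain of the embryos is given in the sources used here. No leading letter of a culture name holds both genotypes, and whatever that letter stands for cannot be told apart from the genotype.

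Wnt proteins are lipid-modified secreted ligands that bind Frizzled receptors, and the receptor pairing decides whether the signal stabilises beta-catenin, which then acts with TCF/LEF factors in the nucleus, or runs through other routes that shape the cytoskeleton and cell polarity. Secreted antagonists hold ligands or co-receptors back, and several target genes of the pathway feed back on it. Fibroblasts both make and receive these signals, which direct mesenchymal growth, differentiation and matrix production. Ing1 encodes a chromatin reader that works with histone deacetylase complexes.

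The Ing1 probe GE35608 gave normalized intensities of 1.38, 0.930 and 1.39 in Ing1-deficient cultures C4, C3 and B1, against 11.7, 11.4 and 11.1 in wild-type cultures H2, H3 and I2, a log2 difference of -3.23 ± 0.19 (SE, limma adjusted p = 0.000286). A normalized intensity is the background-subtracted spot signal divided by the array's median, and 55.5% to 62.1% of the 34967 transcript probes of an array carried a good-signal flag. All 14 fibroblast markers were measured, with summed intensities of 1180 to 1300 in Ing1-deficient and 1022 to 1241 in wild-type cultures, and Thy1 and Lum were past the threshold and higher in Ing1-deficient cultures. Summed smooth muscle markers were 748 to 812 in Ing1-deficient cultures, against 440 in H3 and 722 to 735 in the other wild-type cultures, with Myh11 and Actg2 past the threshold. Macrophage markers summed to 60.7, 185 and 98.1 in C4, C3 and B1, against 68.9, 41.6 and 28.5 in H2, H3 and I2, with C1qa, C1qb and Mrc1 past the threshold and Ptprc low on all arrays. Chondrocyte and osteoblast markers summed to 9.54 to 12.9 in Ing1-deficient and 13.9 to 18.9 in wild-type cultures, with Col2a1 past the threshold and Acan and Matn1 low on all arrays. Endothelial markers summed to 5.44 to 6.26 in Ing1-deficient and 3.67 to 4.77 in wild-type cultures, with Cdh5 and Pecam1 low on all arrays, and epithelial markers to 6.34 to 8.98 and 6.004 to 8.63, with Ocln low on all. The Y-linked Eif2s3y was high in B1 of the Ing1-deficient cultures and in H2 and H3 of the wild-type cultures.

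Ccn4, a matricellular target of Wnt signalling also known as Wisp1, and Dkk2, a Dickkopf antagonist, were higher in Ing1-deficient fibroblasts. None of the other Wnt genes passed the test, so 5% of the tested Wnt genes passed, against 7.63% of all genes tested. Ccn4 and Dkk2 each passed in only 1 of the 6 fits with 1 array left out. Ccn4 was 3.84-fold and Dkk2 2.15-fold as high in Ing1-deficient as in wild-type cultures. Nkd1, a feedback inhibitor, had the lowest difference, -1.04 on the log2 scale, and its adjusted p of 0.0746 missed the threshold. The Frizzleds, Lrp co-receptors, Dishevelleds and TCF/LEF factors gave differences, by the brightest probe of each gene, between -0.43 and 0.31, none past the threshold.

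Of the 56 genes with a probe, 40 were tested because at least 1 genotype gave good flags throughout its 3 arrays, 32 of them with good flags on all 6 arrays. The 3 that passed through the Ing1-deficient arrays alone (Wnt4, Lgr5 and Wif1) and 4 of the 5 that passed through the wild-type arrays alone (Wnt16, Lrp5, Ror2 and Axin1) missed a good flag on 1 array through an irregular spot, not a dim one. By its brightest probe Wnt2b was the only tested gene with dim spots, in C4 and B1. Among the 16 genes not tested, Wnt2, Wnt5b, Wnt7b, Dkk1, Sfrp5 and Axin2 were not well above background on any array, Wnt6 was masked on every array, and Wnt9a, Wnt10a, Wnt10b, Wnt11, Fzd5, Fzd6, Fzd9, Ror1 and Dvl3 had good spots on some arrays only.

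By limma with Benjamini-Hochberg adjustment over the 19575 tested probes and a threshold of 0.05, 2 of the 40 Wnt genes were higher and 0 lower in Ing1-deficient cultures, where each gene is taken by its brightest tested probe. Over all 11893 genes tested in the same way, 7.63% passed, 6.02% higher and 1.61% lower, and of the probes 6.57% passed. At an unadjusted p under 0.05, 6 Wnt genes were higher and 3 lower, against 28.2% of all genes, 19.9% higher and 8.24% lower. The 3 Ing1-deficient arrays lay above all wild-type arrays for 7 Wnt genes (17.5%, against 23.7% of all genes) and below them for 4 (10%, against 9.87% of all genes). The median log2 difference was -0.08 over the 40 Wnt genes and 0.07 over all genes, and 40% of the Wnt genes and 57.3% of all genes had a positive difference. For 33 of the 40 the 95% interval of the difference stayed within a 2-fold change either way, and for the other 7 it reached past it. The intervals were not counted over all genes.

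**Figure D1:**
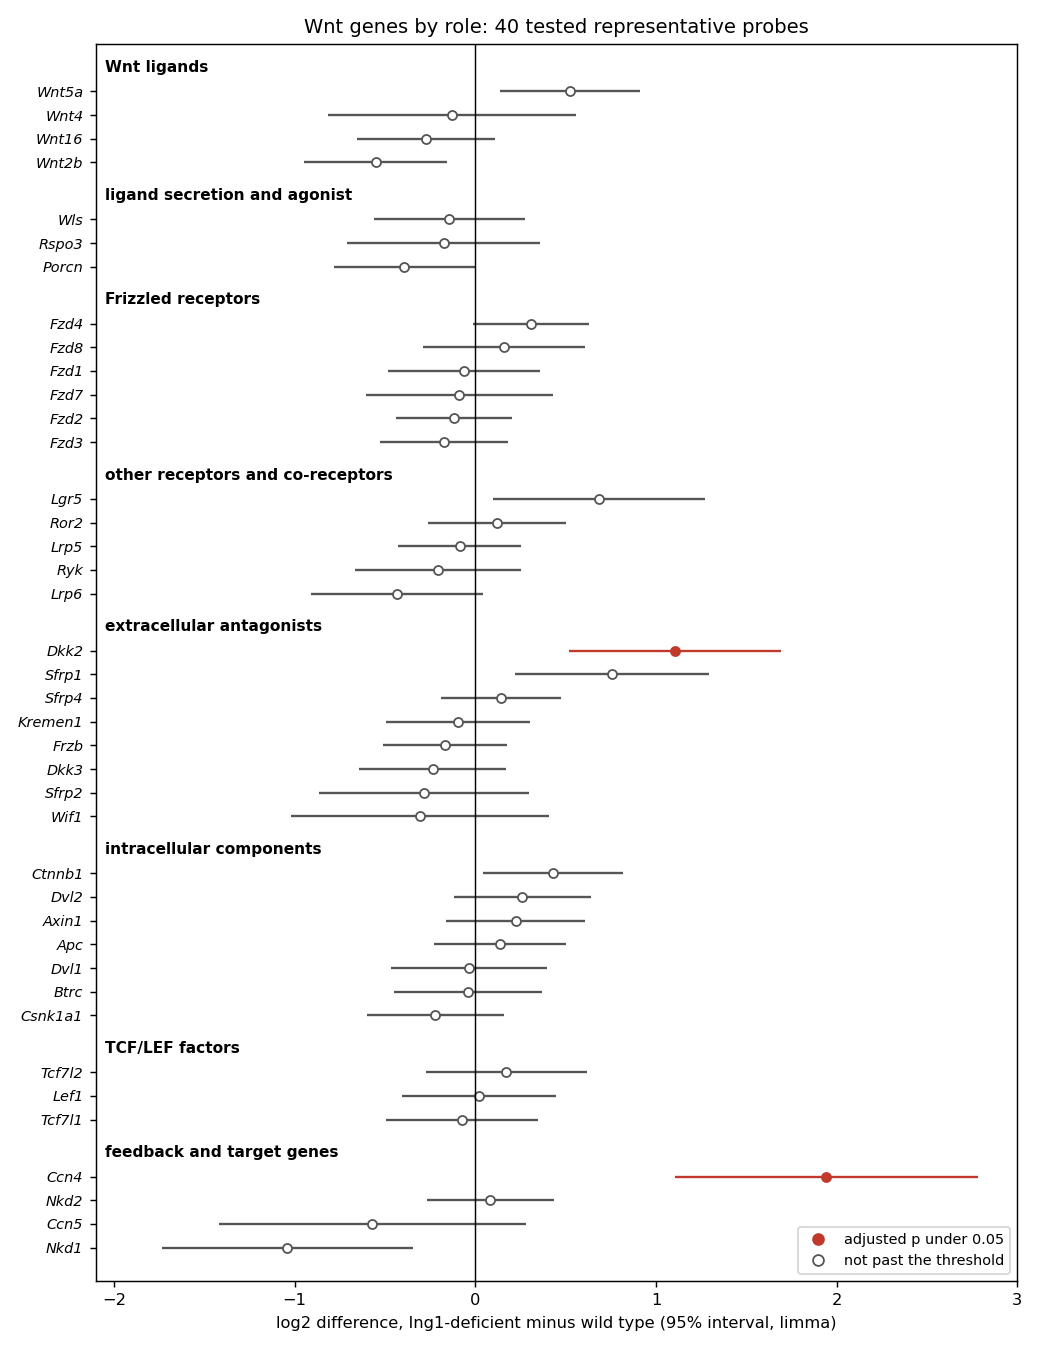
Log2 difference, Ing1-deficient minus wild type, of the 40 tested Wnt genes grouped by role, with 95% intervals from limma (n = 3 cultures per genotype). The filled points, Dkk2 at 1.10 and Ccn4 at 1.94, are the genes past the adjusted threshold of 0.05. Of the 40 intervals 9 exclude zero, 15% above it and 7.5% below it. At an unadjusted p under 0.05, 19.9% of all genes were higher and 8.24% lower.

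The Wnt ligands were mostly dim in both genotypes, and 4 of 12 were tested. Wnt5a is a ligand best known for routes that do not need beta-catenin. Its intensities were 3.50, 4.26 and 3.96 in Ing1-deficient cultures C4, C3 and B1. In wild-type cultures H2, H3 and I2 they were 2.52, 2.44 and 3.24. Every Ing1-deficient culture was above every wild-type culture, and I2 was nearest to them. The log2 difference of 0.52 ± 0.17 did not pass the threshold (adjusted p = 0.0975). Wnt2b, a ligand of the beta-catenin route, ran the other way, at 0.670, 0.857 and 0.593 in C4, C3 and B1 against 1.08, 0.979 and 1.02 in H2, H3 and I2. The genotypes did not overlap, C4 and B1 were not well above background, and the difference was -0.55 ± 0.17 (adjusted p = 0.0886). Wnt2b entered the test only through the wild-type arrays, where it was high, and with a floor of 2 times the main one its difference was 0. Wnt4 differed by -0.13 and Wnt16 by -0.27, both with overlapping cultures. Wnt4 was high in C4 (4.07) and H3 (3.78) and between 1.85 and 2.57 in the other 4 cultures. Its dimmer probe, GE110569, was not tested. That probe was at 1.90, 0.447 and 0.785 in C4, C3 and B1, against 0.589, 0.240 and 0.296 in H2, H3 and I2. Only C4 and B1 had good flags on it. The median of the 4 tested ligands was -0.20.

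All 3 genes of ligand secretion and agonism had negative differences, with a median of -0.17, and none passed. Porcn, the acyltransferase that adds the lipid to Wnt proteins, gave 0.763, 1.01 and 0.940 in C4, C3 and B1 against 1.28, 1.03 and 1.25 in H2, H3 and I2. The groups did not overlap, but C3 and H3 differed by little, and the difference of -0.39 ± 0.17 had an adjusted p of 0.188. Wls is the carrier that takes Wnts to the cell surface. It was at 16.7, 19.5 and 16.8 in the Ing1-deficient cultures and 17.5, 17.1 and 24.6 in the wild-type cultures. The difference was -0.14 ± 0.18 with an interval of -0.56 to 0.27. Rspo3, a secreted R-spondin that strengthens Wnt signalling, was lowest in C4 at 8.15 and between 10.6 and 14.6 in the other cultures, with a difference of -0.17.

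Among the Frizzled receptors, 6 of 9 were tested, none passed, and the median difference was -0.08. Fzd4 was 1.99, 2.06 and 1.92 in C4, C3 and B1, against 1.66, 1.65 and 1.52 in H2, H3 and I2, without overlap and with little spread in either genotype. Its difference of 0.31 ± 0.14 had an adjusted p of 0.210. Fzd2 also kept the genotypes apart, at 11.02, 10.48 and 11.39 in the Ing1-deficient cultures and 11.78, 11.44 and 12.48 in the wild-type cultures, but by a difference of only -0.12 ± 0.14 (unadjusted p = 0.430). Fzd1 (-0.06), Fzd7 (-0.09) and Fzd8 (0.16) overlapped between genotypes, and Fzd7 was lowest in C4 at 1.20 and highest in C3 at 2.24.

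Fzd3 was read by 3 tested probes that did not run the same way. The brightest probe, GE1394054, had a difference of -0.17 ± 0.16, and GE1473952 had 0.17 ± 0.18. On the dimmest, GE37975, the Ing1-deficient cultures were at 0.956, 0.544 and 0.800 with good flags, against 0.272, 0.274 and 0.328 in the wild-type cultures, all 3 not well above background. This probe entered the test only through the Ing1-deficient arrays, where it was high. With values under 0.57 raised to 0.57, as in all tests, its difference was 0.41 ± 0.20, or 1.33-fold (interval -0.04 to 0.86, adjusted p = 0.230). With the wild-type level set at the lowest good signal of each array, the probe was 1.87-fold higher in Ing1-deficient cultures. C3, at 0.544, was raised to 0.57 for that ratio too, so it is not a strict lower bound.

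Of the other receptors, 5 of 6 were tested and none passed. Lgr5, a receptor for R-spondins that is also a target gene of the pathway, was 4.01, 3.83 and 3.55 in C4, C3 and B1, against 1.60, 3.51 and 2.34 in H2, H3 and I2. The wild-type cultures were spread widely, with H3 next to the Ing1-deficient cultures, and the spot in I2 was irregular. The difference was 0.68 ± 0.26 with an adjusted p of 0.136, and without H3 it was 0.97 and passed (adjusted p = 0.0204). Without H2 it was 0.40 (adjusted p = 0.345), and without C4, C3, B1 or I2 it lay between 0.64 and 0.73 and did not pass. The dimmer Lgr5 probe, GE1486754, was not tested, and its genotypes overlapped. It was at 0.269, 0.718 and 1.31 in C4, C3 and B1, against 0.177, 0.750 and 0.414 in H2, H3 and I2. Lrp6, a co-receptor of the beta-catenin route, had the lowest difference of these receptors, -0.43 ± 0.21 (adjusted p = 0.229), at 1.63, 1.29 and 2.05 in the Ing1-deficient and 2.44, 2.41 and 1.80 in the wild-type cultures. B1 was above I2, so the genotypes overlapped. Its partner Lrp5 differed by -0.09. The receptor tyrosine kinase Ror2 differed by 0.12 and Ryk, a receptor related to such kinases, by -0.20, at 32.6 to 44.8 in Ing1-deficient and 34.7 to 52.9 in wild-type cultures.

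**Figure D2:**
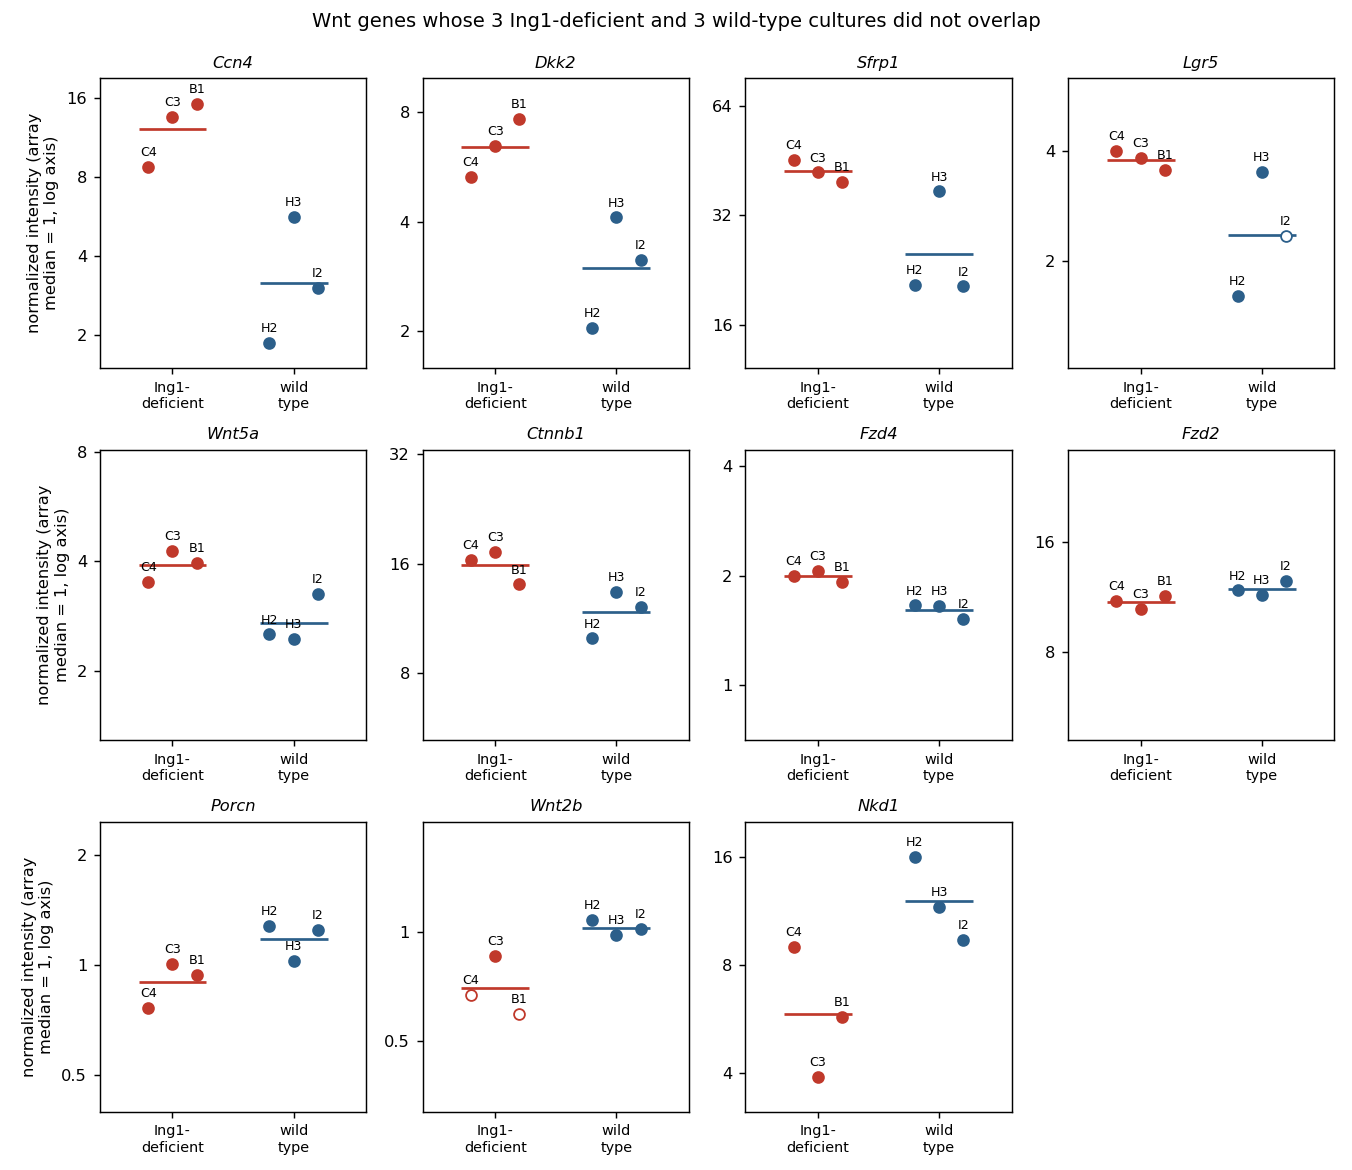
Normalized intensity (array median = 1, log axis) of the 11 Wnt genes whose 3 Ing1-deficient (left, red) and 3 wild-type (right, blue) cultures did not overlap, 1 point per culture on the brightest tested probe, with the mean of the log2 values as a line and open points for spots without a good flag. H3 was the highest wild-type culture in 5 of the 7 genes where Ing1-deficient cultures lie above, and in 54.8% of the 2815 genes of the whole array with that pattern.

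Dkk2, which binds the Lrp co-receptors, was the antagonist that rose. It had intensities of 5.31, 6.45 and 7.68 in C4, C3 and B1, against 2.04, 4.11 and 3.14 in H2, H3 and I2, so that all Ing1-deficient cultures were above all wild-type cultures. The log2 difference was 1.10 ± 0.26 (95% interval 0.52 to 1.69), with an adjusted p of 0.0420. Leaving out H3 gave 1.34 (adjusted p = 0.0126). Without C4, C3, B1, H2 or I2 the difference lay between 0.83 and 1.24 and missed the threshold, with adjusted p-values of 0.0899, 0.0869, 0.140, 0.117 and 0.143. The summed smooth muscle and endothelial markers were also higher in all 3 Ing1-deficient cultures than in any wild-type culture. The macrophage markers were higher in C3 and B1, and the chondrocyte and osteoblast markers were lower in all 3. The part of these markers in this result was not tested. In whole cultures, more cells of a type and more RNA per cell cannot be told apart.

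The promoter of Dkk2 was searched for the core word of TCF/LEF factors, the proteins that carry beta-catenin to its targets, and is shown beside that of Fzd7, a tested receptor gene with 1 annotated window, which holds the word. Both sequences are from RefSeq on build GRCm38.p6 and run from 250 bases before to 50 bases after the annotated start of the gene, 5′ to 3′ on the plus strand, with the matched word in capitals. The word searched, on both strands, was CTTTG followed by 2 letters that are each A or T, which makes 4 words of 7 letters. Dkk2 lies at chr3:132085042-132085341 and has no match. Fzd7 lies at chr1:59481897-59482196 and has 1 match, on the minus strand, at -130 from the start.
Dkk2: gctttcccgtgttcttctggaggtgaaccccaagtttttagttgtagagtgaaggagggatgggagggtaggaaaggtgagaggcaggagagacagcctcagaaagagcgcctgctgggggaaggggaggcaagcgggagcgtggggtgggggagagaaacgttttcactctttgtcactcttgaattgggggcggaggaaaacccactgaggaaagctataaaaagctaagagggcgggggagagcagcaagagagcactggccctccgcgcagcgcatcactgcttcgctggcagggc
Fzd7: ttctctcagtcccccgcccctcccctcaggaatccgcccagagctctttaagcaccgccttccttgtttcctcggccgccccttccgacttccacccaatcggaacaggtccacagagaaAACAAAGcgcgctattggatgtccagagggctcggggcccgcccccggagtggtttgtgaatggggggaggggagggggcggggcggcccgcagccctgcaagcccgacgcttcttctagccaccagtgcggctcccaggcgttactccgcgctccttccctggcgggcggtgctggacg
Of the 58 genes, 36 had a promoter in the table. A word was present in 6 of their 45 windows (13.3%), against 5544 of all 32851 windows (16.9%), and in 3 of 26 windows of tested Wnt genes (11.5%), against 12.3% for all genes tested. The 3 windows were that of Fzd7, 1 of 4 of Lef1 and 1 of 2 of Tcf7l2. Such a match is a run of letters, not a shown binding site.

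Sfrp1, a secreted decoy that binds Wnts, was read by a pair of probes of opposite sign. On the brighter, GE103708, the intensities were 45.3, 42.0 and 39.6 in C4, C3 and B1, against 20.5, 37.2 and 20.4 in H2, H3 and I2, without overlap, and H3 stood close to the Ing1-deficient cultures. The difference was 0.76 ± 0.24 (adjusted p = 0.0872), and 1.04 with an adjusted p of 0.00756 when H3 was left out. With any other array left out it lay between 0.61 and 0.80 and did not pass. On GE36766 the values were 5.09, 9.21 and 8.51 in the Ing1-deficient cultures and 13.5, 10.6 and 7.71 in the wild-type cultures, overlapping, with a difference of -0.49 ± 0.27 (adjusted p = 0.2910). No direction is given for Sfrp1 for that reason.

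The remaining antagonists overlapped between genotypes, and none passed. Differences were -0.29 for Sfrp2, 0.14 for Sfrp4 and -0.17 for Frzb, 3 further members of the decoy family, -0.31 for Wif1, which also binds Wnts, -0.24 for Dkk3, a divergent Dickkopf, and -0.10 for Kremen1, a receptor for Dickkopf proteins. Sfrp2 and Wif1 were highest in C4 and H3: Sfrp2 was at 6.61 and 7.39 there and at 3.82 to 5.47 elsewhere, and Wif1 at 1.94 and 1.86 there and at 0.765 to 1.34 elsewhere. On its brighter probe, Wnt4 had the same pair of high cultures, 1 of each genotype. The median over the 8 tested antagonists was -0.13.

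**Figure D3:**
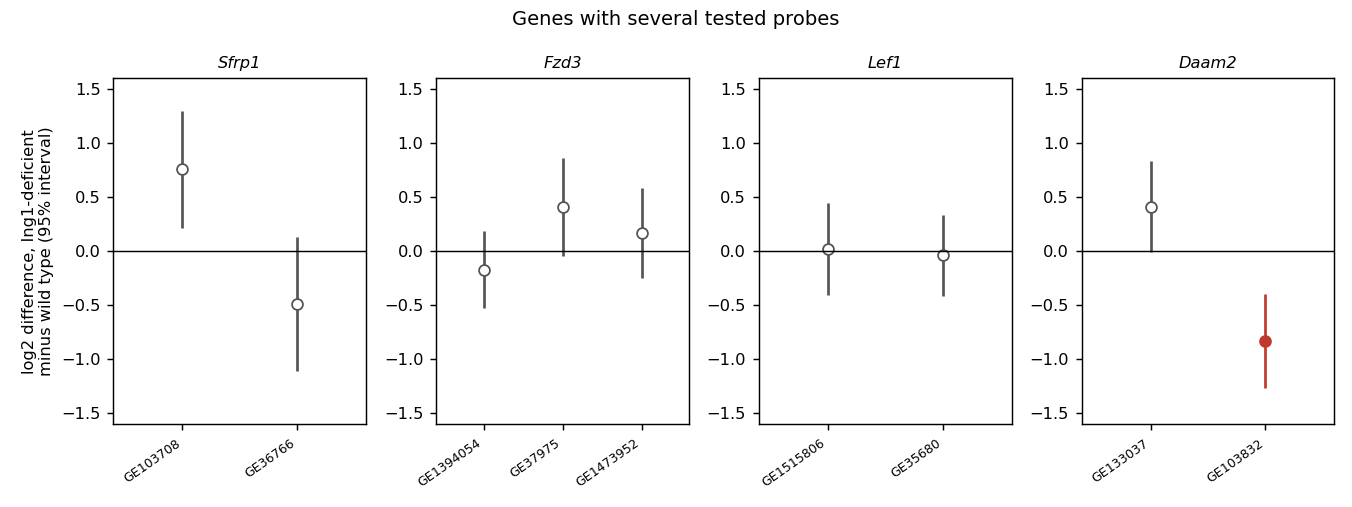
Log2 difference, Ing1-deficient minus wild type, with 95% intervals (limma, n = 3 cultures per genotype), for each tested probe of Sfrp1, Fzd3, Lef1 and, from the other pathway genes, Daam2. The probes of each gene fell on both sides of zero, and the filled point, Daam2 probe GE103832 at -0.83, passed the adjusted threshold.

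Of the intracellular components, 7 of 9 were tested, none passed, and the median difference was 0.14. Ctnnb1, which encodes beta-catenin, was 16.4, 17.2 and 14.0 in C4, C3 and B1, against 9.96, 13.3 and 12.2 in H2, H3 and I2. The genotypes did not overlap, though B1 and H3 were close, and the difference of 0.43 ± 0.17 had an adjusted p of 0.153. Members of the complex that degrades beta-catenin gave 0.22 for the scaffold Axin1, 0.14 for the scaffold Apc and -0.22 for the kinase Csnk1a1, and Btrc, the ubiquitin ligase subunit that recognises beta-catenin, gave -0.04. Csnk1a1 was at 49.3 to 55.9 in Ing1-deficient and 50.4 to 68.5 in wild-type cultures. The Dishevelled adaptors, which carry the signal from Frizzleds, differed by -0.04 for Dvl1 and 0.26 for Dvl2.

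None of the 3 measured TCF/LEF factors passed, and their median difference was 0.02. Lef1 was 6.47, 4.17 and 5.87 in C4, C3 and B1, against 5.41, 5.24 and 5.33 in H2, H3 and I2 on its brighter probe, GE1515806. The wild-type cultures lay inside the range of the Ing1-deficient ones, and the difference was 0.02 ± 0.19 (interval -0.40 to 0.45). The other Lef1 probe, GE35680, gave -0.04 ± 0.17. Tcf7l2 differed by 0.17 (interval -0.28 to 0.62) and Tcf7l1, which acts largely as a repressor, by -0.07 (interval -0.49 to 0.35).

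Among the feedback and target genes, Ccn4 gave the largest difference of all 40 Wnt genes. It was at 8.75, 13.6 and 15.2 in C4, C3 and B1, against 1.87, 5.63 and 3.01 in H2, H3 and I2, and the lowest Ing1-deficient culture stood above the highest wild-type culture. The log2 difference was 1.94 ± 0.37 (interval 1.10 to 2.78), with an adjusted p of 0.0292. Cultures ranked in the same order for Ccn4 as for Dkk2, B1 highest, then C3, C4, H3 and I2, and H2 lowest. Without H3 the difference was 2.36 (adjusted p = 0.00432), and without C4, C3, B1, H2 or I2 it lay between 1.56 and 2.18 with adjusted p-values of 0.0745, 0.0625, 0.107, 0.0898 and 0.121, past the threshold in none. The part of the smooth muscle, endothelial, macrophage, and chondrocyte and osteoblast markers was not tested here either. With the signal of Eif2s3y as a covariate neither gene passed, at 2.02 (adjusted p = 0.0740) for Ccn4 and 1.14 (adjusted p = 0.0940) for Dkk2.

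Nkd1, a target that restrains the pathway through Dishevelled, was 8.96, 3.89 and 5.72 in C4, C3 and B1, against 16.0, 11.6 and 9.37 in H2, H3 and I2. All Ing1-deficient cultures were below all wild-type cultures, C4 only slightly so, and the difference was -1.04 ± 0.31 (interval -1.73 to -0.35, adjusted p = 0.0746). Its relative Nkd2 differed by 0.08 ± 0.15, with overlapping cultures. Ccn5, a matricellular relative of Ccn4 also known as Wisp2, had overlapping genotypes: intensities were 5.96, 13.0 and 4.57 in the Ing1-deficient and 8.04, 15.1 and 9.61 in the wild-type cultures, high in C3 and H3, with a difference of -0.57 ± 0.38 (adjusted p = 0.371). Axin2, the target most often used as a readout of beta-catenin activity, was at 0.0693 to 0.158 in Ing1-deficient and 0.0133 to 0.256 in wild-type cultures, not well above background on any array, so no fold is given.

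**Figure D4:**
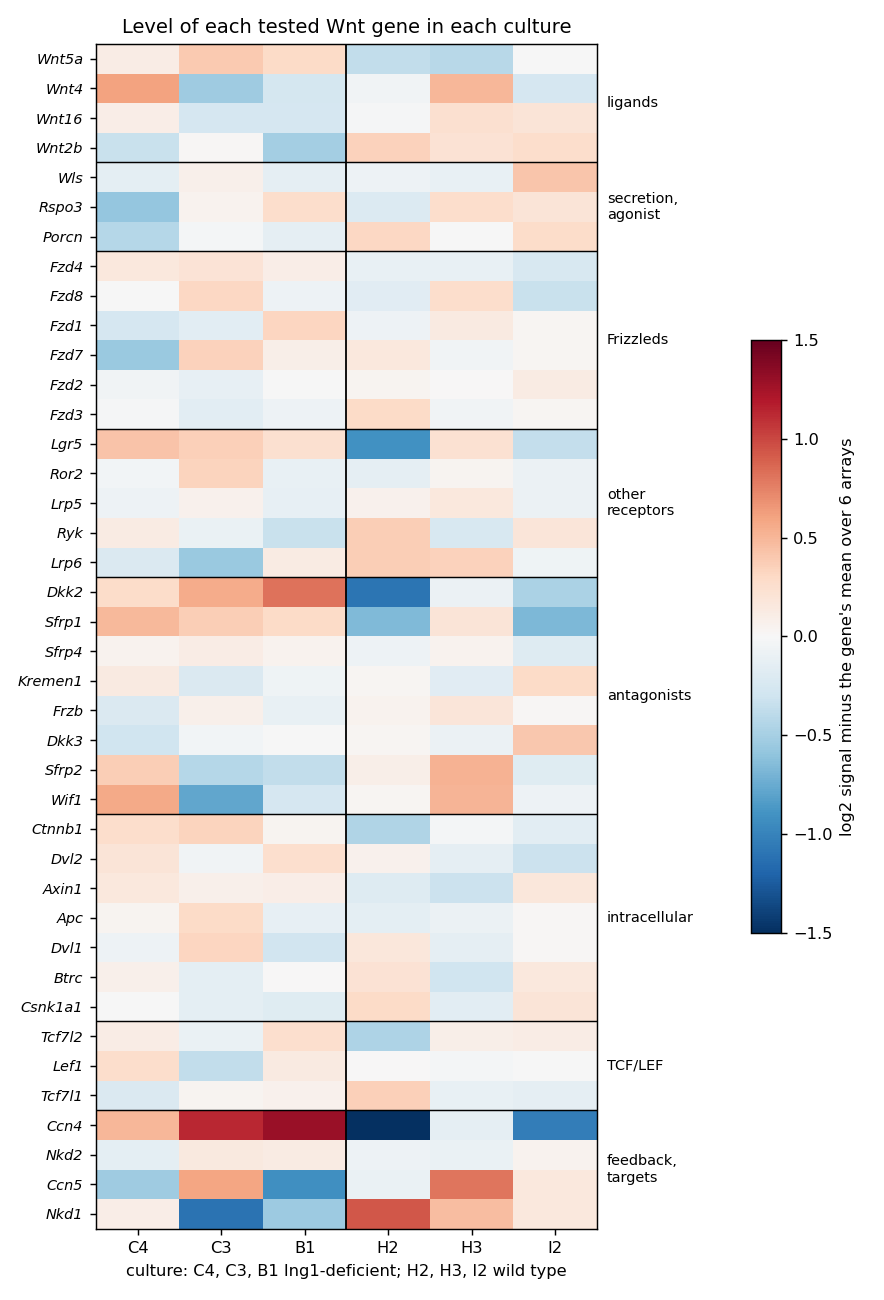
Log2 signal of each of the 40 tested Wnt genes in each culture minus the gene's mean over the 6 arrays, with Ing1-deficient cultures C4, C3 and B1 left of the line and wild-type cultures H2, H3 and I2 right of it. Ccn4 and Dkk2 are red in all Ing1-deficient cultures and below the mean in all wild-type cultures. H3 is the palest of these, at -0.14 for Ccn4 and -0.09 for Dkk2. Wnt4, Sfrp2 and Wif1 are red in C4 and H3.

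A further 69 genes of the pathway outside the 58 were listed, 63 of them with a probe and 50 tested. Of these, 2 (4%) were higher and 3 (6%) lower in Ing1-deficient cultures, against 6.02% higher and 1.61% lower over all genes, with a median difference of 0.04. Ctnnbip1, an inhibitor that keeps beta-catenin from TCF factors, was 1.36, 1.16 and 1.09 in C4, C3 and B1, against 0.650, 0.836 and 0.618 in H2, H3 and I2, a difference of 0.78 ± 0.18 (adjusted p = 0.0375). Frat1, which binds the kinase Gsk3 and favours signalling, was 1.41, 1.13 and 1.35 against 0.296, 0.923 and 0.613 in the same cultures, a difference of 0.91 ± 0.21 (adjusted p = 0.0391). Both entered the test only through the Ing1-deficient arrays, where they were high, since H2 was not well above background, and neither was tested when a good flag on all 6 arrays was required.

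The 3 lower genes differed in how they entered the test. Rnf43 is a ubiquitin ligase that removes Frizzleds from the surface. It was 0.788, 0.574 and 0.494 in C4, C3 and B1, against 1.75, 1.24 and 1.33 in H2, H3 and I2. The difference was -1.16 ± 0.20 (adjusted p = 0.0248). Rnf43 entered the test only through the wild-type arrays, where it was high, since C3 and B1 were not well above background. Sostdc1, a secreted antagonist of Wnt and BMP signals, was 1.80, 1.73 and 1.55 against 3.27, 3.17 and 2.63, a difference of -0.83 ± 0.16 (adjusted p = 0.0293), with good flags on all 6 arrays. Frat2, the close relative of Frat1, went the opposite way, at 2.89, 1.42 and 1.93 against 7.18, 3.58 and 4.19. The difference was -1.25 ± 0.31 (adjusted p = 0.0481). The Frat2 spot in C4 was irregular, so Frat2 also entered the test only through the wild-type arrays, where it was high. Daam2, a formin that binds Dishevelled, had a probe that passed, GE103832 (-0.83 ± 0.19, adjusted p = 0.0404), and a brighter one of opposite sign that did not, GE133037 (0.41 ± 0.19, adjusted p = 0.203). With H3 left out 9 pathway genes and 15% of all genes passed in limma, and with any other single array left out 0 pathway genes and 0.0336% to 2.25% of all genes passed, while 5 to 8 were higher and 3 to 6 lower at an unadjusted p under 0.05.

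**Figure D5:**
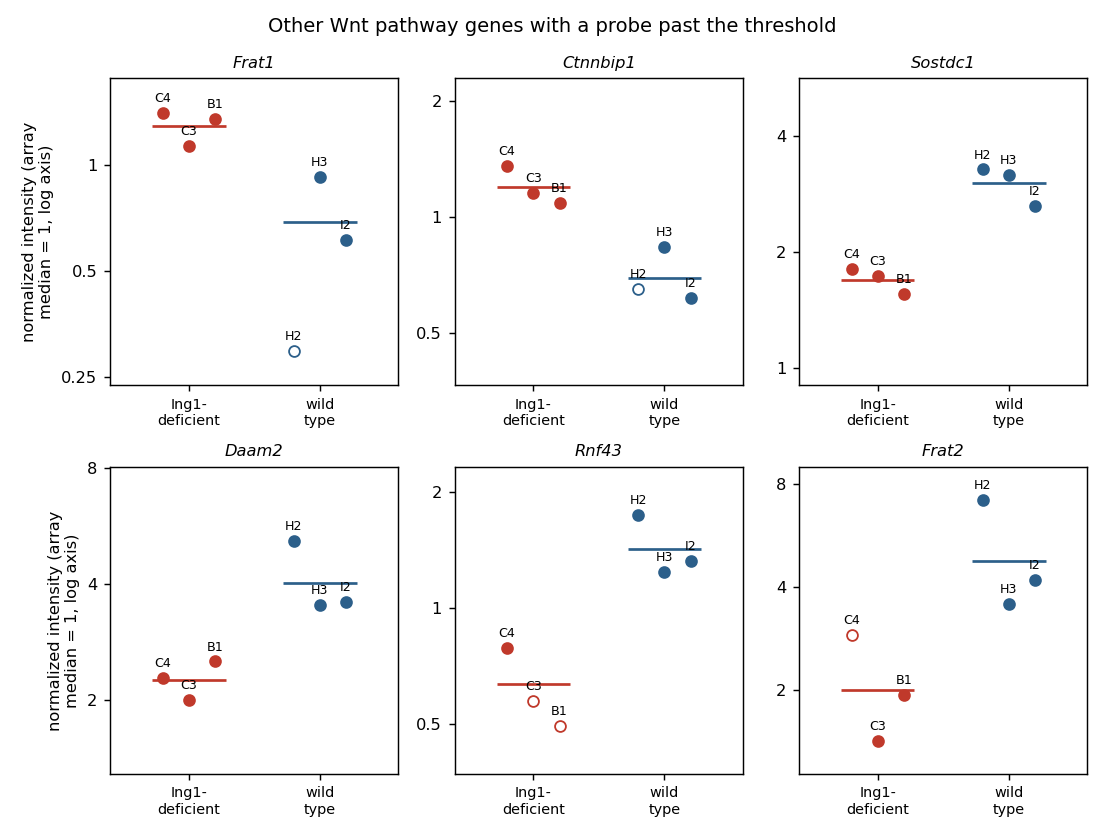
Normalized intensity (array median = 1, log axis) of the 6 other Wnt pathway genes with a probe past the adjusted threshold, Ing1-deficient cultures left in red and wild-type cultures right in blue, 1 point per culture, open where the spot had no good flag, with the mean of the log2 values as a line. Frat1 and Ctnnbip1 are higher and Sostdc1, Rnf43, Frat2 and the Daam2 probe GE103832 lower in all 3 Ing1-deficient cultures.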

How the data were processed

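Per the labels' protocols, the authors labelled total RNA with biotin, hybridised it to 1-colour CodeLink arrays and scanned them with a GenePix scanner. The spots were quantified with CodeLink Expression Analysis 4.1.0.29054, per the file headers. The deposited intensity is the spot mean less the local background median, scaled so that the unmasked transcript probes of an array have a median of 1, on a linear scale, as worked out from the values. The labels also state a log2 transformation, and ratios over 2 or under 0.5 with a Student t-test. The deposited series table held the same intensity values (217362 of 217362 equal). In the deposited scanner tables these numbers are written with decimal commas. Genome build is not given in the sources used here.

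Tests used log2 of the intensity, with values under 0.57 (the median over arrays of the 1st percentile of good spots) raised to it, which understates differences of dim probes. Masked spots (105 to 177 per array) were missing. Probes flagged good throughout at least 1 genotype were fitted over all 6 arrays with limma 3.58.1 (lmFit, eBayes, two-sided) in R 4.3.3, without covariates. On simulated data with 3 against 3 arrays and 19575 probes, 77% of log2 changes of 1 and 99% of changes of 2 were recovered, with 10 false calls (5.38% of calls). The simulated noise was normal and independent between probes, with each probe's spread drawn toward the median. No floor or flags were applied to it, so these shares need not hold for the Wnt genes. The number of arrays limits the precision. Genes were named from probes with 1 symbol (21615 probes; 681 had several and 12671 none), and Aes was matched as Tle5. Promoters were matched by symbol to RefSeq, GRCm38.p6.

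The Wnt genes, the gene lists and the naming rule were chosen with earlier results of these data known. Named with their values were Ing1, genes past the threshold, genes whose genotypes did not overlap at an unadjusted p under 0.05, the gene with the highest mean in each role, and probes measured in 1 genotype only. Ryk and Csnk1a1, the highest in their roles, are given as ranges. The array values of other Wnt genes, such as Fzd4 and Lrp6, were added after they were seen. The 21 alternatives covered normalization, background correction, floor, flag filter, masked spots, source table, variance model, array weights, letter block, Eif2s3y, t-test, probe averaging and each array left out.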

Additional observations from a re-analysis of the deposited data

How the results depend on the processing

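In the main setting 2 Wnt genes and 5 other pathway genes passed, and the Wnt median was -0.08. The 21 alternatives were run separately. The counts stayed at 2 and 5 with the series value table, the mean of a gene's probes, probes masked on no array and a variance trend with robust fitting, and the median moved by less than its spread between cultures (SD 0.02). With a good flag required on all 6 arrays, 2 Wnt genes and 1 pathway gene passed. Cyclic loess gave 1 and 3, normexp with offset 50 gave 1 and 2 with a median of -0.0487, and quantile normalization 0 and 3 with a median of -0.11. Over all genes the calls were 716 higher and 191 lower in the main setting and 303 and 182 after quantile normalization. A floor of 0.01 gave 0 and 1, and a floor of 2 times the main one 0 and 0 with a median of -0.0520. No filter on flags gave 0 and 0 with a median of -0.0411, and Eif2s3y as a covariate 0 and 0. In these settings with 0 Wnt calls, 3 to 6 Wnt genes were higher and 1 to 5 lower at an unadjusted p under 0.05 in limma. The methods' t-test gave 0 and 0 after Benjamini-Hochberg adjustment, and 2 Wnt genes higher and 0 lower at the unadjusted p and ratio that the labels state. Array weights gave 6 and 14 with a median of -0.0436, adding Sfrp1, Lgr5, Nkd1 and Wnt2b, while 25.6% of all genes passed. The leading letter as a random block gave 25 and 30 with a median of -0.0497, with 66.8% of all genes called and a correlation of -0.89 within letters. Leaving out 1 array gave 0 to 4 Wnt genes, 0 to 9 pathway genes and medians of -0.0890 to -0.0146, with the highest counts without H3, where 15% of all genes passed, against 0.0336% to 2.25% without any other array. Where it gave 0 Wnt genes, 3 to 6 were higher and 2 to 5 lower at an unadjusted p under 0.05. Ccn4 passed in 10 and Dkk2 in 8 of the 21 alternatives, and both were positive in all 21, from 1.28 to 2.36 and from 0.64 to 1.34. Some of these passes could not have changed the difference. The series value table holds the same values, and both genes have 1 probe, masked on no array, so probe averaging and the mask filter left their differences as they were. The cause of these shifts was not tested.

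Among Wnt genes, 37 values reversed sign, 0 of them past the threshold. With the letter block these were Wls 0.0265, Kremen1 0.0101, Dvl1 0.0774, Btrc 0.00454 and Lef1 -0.0269 on GE1515806 and 0.0274 on GE35680. With array weights they were Fzd1 0.0459, Fzd7 0.0584, Tcf7l1 0.0873 and Lef1 -0.0229, and with Eif2s3y as a covariate Fzd1 0.0173. Averaging probes gave Fzd3 0.14 and Lef1 -0.00795. Lef1 was -0.0269 with cyclic loess, -0.0527 with normexp and -0.0838 with quantile normalization. With 1 array left out, values reached both signs for Btrc (-0.20 to 0.0550), Dvl1 (-0.20 to 0.10), Fzd1 (-0.24 to 0.0484), Fzd7 (-0.28 to 0.17), Kremen1 (-0.20 to 0.0231), Lef1 (-0.11 to 0.21 and -0.17 to 0.0559), Ror2 (-0.0168 to 0.20), Rspo3 (-0.35 to 0.0697), Tcf7l1 (-0.16 to 0.0902), Tcf7l2 (-0.0167 to 0.27), Wif1 (-0.67 to 0.00502), Wls (-0.24 to 0.0258) and Wnt4 (-0.46 to 0.11). No paired analysis was possible because the sources used here do not say which cultures of the 2 genotypes belong together.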
